A study of Rattus norvegicus with 24 samples.

Results

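The ipsilateral thalamus was compared with the perilesional cortex, the cortex beside the lesion, in the 6 rats of the series that had a traumatic brain injury (TBI). Members were chosen by label and rat number: 6 thalamus and 6 cortex libraries, 1 of each from every TBI rat, 12 of the 24 libraries in all. All animals were adult male Sprague-Dawley rats. TBI was a lateral fluid-percussion injury, in which a pressure pulse is delivered to the intact dura through a craniectomy over the left parietal cortex. The tissue was taken 3 months later. According to the methods, rats with a prominent rim of raised T2 magnetic resonance signal around the lesion were picked out as having perilesional inflammation. The other 12 libraries came from 6 sham-operated rats, which had the anaesthesia and the whole surgery including the craniectomy, without the impact. They entered no test of thalamus against cortex in TBI rats, and their own difference between the regions is given beside it. Both regions were dissected by hand from 1 coronal slice, so each library is a bulk mixture of neurons, glia, vessels and whatever neighbouring tissue came along. In bulk samples, fewer cells of a type and less RNA per cell cannot be told apart.

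The thalamus relays sensory and motor signals to the cortex. After a cortical injury it loses cortical targets and inputs at a distance from the impact, while the perilesional cortex borders the cavity itself. Microglia, the resident macrophages of the brain, carry purine and fractalkine receptors in the resting state. On meeting debris or degenerating axons they take up a phagocytic programme with Clec7a, Spp1, Cd68 and lysosomal genes. Complement and Fc receptors tag material for uptake and sense the tag, and the phagocyte NADPH oxidase makes superoxide. Astrocytes answer injury with intermediate filaments such as Gfap, and oligodendrocytes make the myelin around the fibre tracts that cross the thalamus.

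Values are normalized counts: fragment counts of a locus divided by a size factor of the library. Within a library they are not corrected for gene length, so levels are compared between samples and never between genes. The 12 TBI libraries held 30568928 to 54608916 fragments. Differences between regions were fitted by limma on log2(normalized count + 1) with the rat as a term, for the 15737 named loci with a mean of at least 10, and a locus was called at a Benjamini-Hochberg adjusted p under 0.05. This scale understates differences of low genes. All log2 differences are thalamus minus cortex, followed by their standard error, and all adjusted p come from that fit unless the comparison with sham rats is named. The latter is an interaction term over all 24 libraries, 15678 loci, with a term for each rat. It asks whether the difference between regions was larger or smaller in TBI than in sham rats.

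On the first principal component of the 12 TBI libraries, with 73.9% of the variance, the regions lay fully apart. The second component, 9.66%, set rat 45 apart in both regions: its thalamus scored -64.1 and its cortex -29.6, while the other 10 libraries lay between 1.10 and 16.3. The thalamus of rat 45 carried transcripts of choroid plexus and of the fibroblasts of the meninges. Ttr, the choroid plexus carrier of thyroxine, reached 229743 there against 145 to 1087 in the other 5 thalami, and 28302 in its cortex against 234 to 532 in the others. Col1a2, a collagen of fibroblasts, reached 9702 in its thalamus against 350.2 to 523 in the others. Emx1, a transcription factor of cortical neurons, was at 26.4 in its thalamus and at 1.88 to 3.4 in the others. A different library, the cortex of rat 24, was high in genes of striatal neurons, with Adora2a at 1612 against 126 to 167 in the other cortices. Results that rest on either rat are given with and without it.

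**Figure D1:**
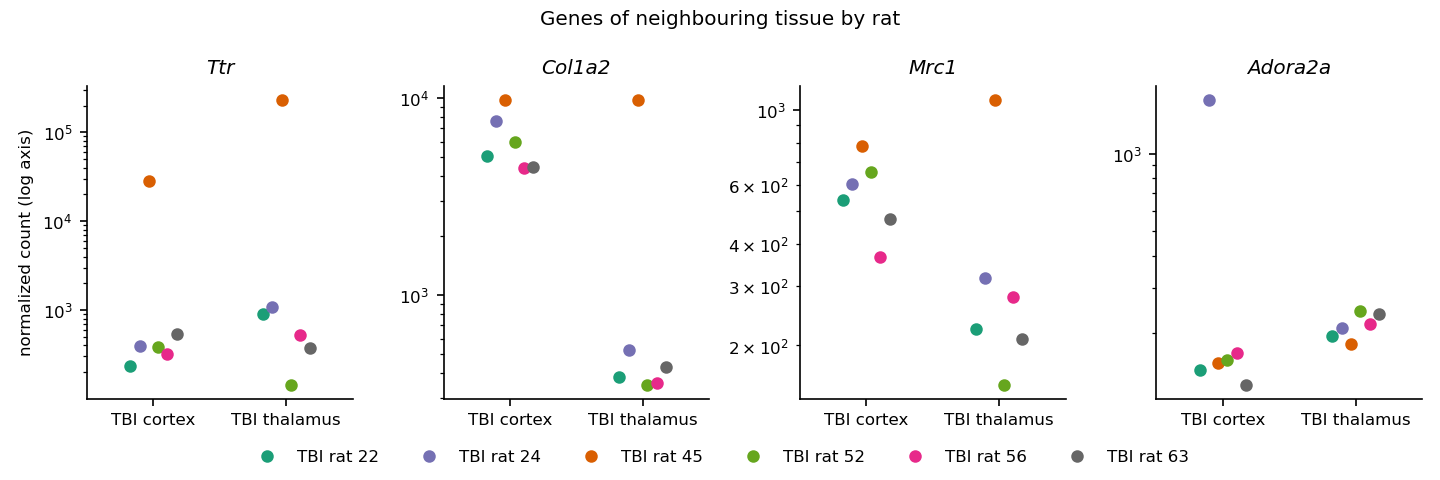
Normalized counts, on a log axis, of genes of tissue that borders the dissected regions in the 6 TBI cortex and 6 TBI thalamus libraries, 1 point per library coloured by rat. Rat 45 stands above the others for Ttr in both regions and for Col1a2 and Mrc1 in the thalamus, and the cortex of rat 24 for Adora2a.

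In TBI rats 5058 loci, 32.1% of those tested, were higher in the thalamus and 4337, 27.6%, were lower, 59.7% together. At least 2-fold differences were called at 7.77% and 7.96%. Values of the regions did not overlap at 36.0% of loci, 19.5% with the thalamus higher and 16.5% with it lower, and 29.4% were higher and 24.6% lower in 6 of 6 rats. The median log2 difference over all loci was 0.03. With this many loci called, the counts for groups of genes below are read against these shares. In the comparison with sham rats, the difference between regions was larger toward the thalamus in TBI rats at 504 loci, 3.21%, and shifted toward the cortex at 797, 5.08%, 8.3% in all.

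Both tissues carried the markers of their labels. All 13 genes of thalamic neurons were higher in the thalamus, with a median log2 difference of 3.86. Among all loci with a mean of at least 100, the largest differences toward the thalamus were at Shox2 and Gbx2, both transcription factors. Shox2 ranged from 4034 to 5939 in the thalamus and from 1.66 to 13.7 in the cortex. Of the 14 cortical neuron genes with a locus, 13 were lower and none was higher, with a median of -3.35. Emx1 ranged from 618 to 758 in the cortex. The thalamus samples also held the habenula, a small nucleus on its dorsal edge. Pou4f1, which marks habenular neurons, was at 302 to 1237 in the thalamus, while no cortex library exceeded 3 fragments, the floor used here for detection, so it was at least 168-fold higher.

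Resident microglial genes were higher in the injured thalamus than beside the lesion. Of 15 genes of the microglia core list, 14 had a locus, 13 passed the filter, 12 were higher and 1 was lower. Their median log2 difference was 0.71, a 1.63-fold difference, and the median per rat ranged from 0.56 to 0.93. In sham rats the same genes had a median of 0.27. The difference was larger in TBI than in sham rats at 8 of the 13 genes and smaller at none, against 3.21% of all loci. Each of these counts was the same without rat 45.

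P2ry12, the receptor by which resting microglia sense ADP, ranged from 1319 to 2099 with a median of 1699 in the thalamus, and from 689 to 1051 with a median of 937 in the cortex. Every thalamus exceeded every cortex, and the log2 difference was 0.89 ± 0.09 (SE, n = 6 rats, adjusted p = 9.81e-06 by limma). Sham rats had medians of 739 and 718, and the difference between regions was 0.75 ± 0.11 larger in TBI rats (interaction adjusted p = 0.0011 by limma). Cx3cr1, the receptor for neuronal fractalkine, lay between 4474 and 6624 in the thalamus and between 2882 and 3410.3 in the cortex, again without overlap (0.72 ± 0.06, adjusted p = 4.02e-06 by limma). Itgam, an integrin chain of the complement receptor CR3, had a log2 difference of 0.91 and P2ry13, another ADP receptor, 0.82, each higher in the thalamus of 6 of 6 rats and each larger than in sham rats. Tmem119, a membrane protein of resident microglia, was also higher in 6 of 6 thalami (0.71 ± 0.07), but sham rats had 0.54 and the test found no difference between them (0.17 ± 0.11, interaction adjusted p = 0.386 by limma). The exception of the list was Olfml3, a secreted matrix protein, which was lower in the thalamus by 0.87 on the log2 scale.

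**Figure D2:**
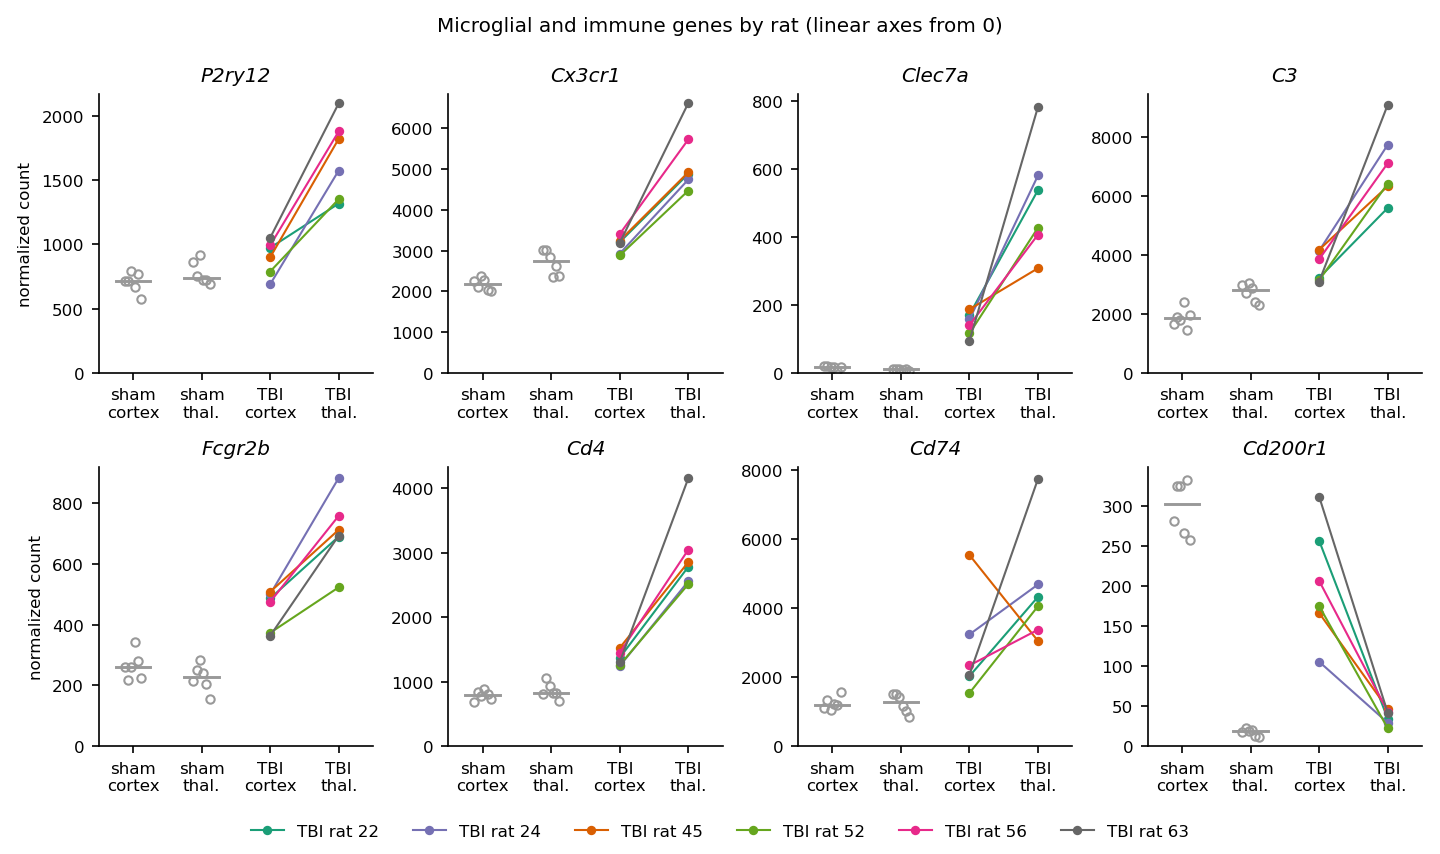
Normalized counts of 8 microglial and immune genes in sham cortex and thalamus (open circles with the median as a bar, n = 6 each) and in TBI cortex and thalamus (points joined within a rat, n = 6), on linear axes from 0. Lines rise from cortex to thalamus in every TBI rat for P2ry12, Cx3cr1, Clec7a, C3, Fcgr2b and Cd4, fall in every rat for Cd200r1, and fall in rat 45 alone for Cd74.

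The activation programme of microglia was higher in the thalamus as well, although its members differed in how far sham rats already showed the difference. Of 18 listed genes 17 were tested, 13 were higher and 2 lower, with a median of 0.74 in TBI rats and 0.24 in sham rats. Clec7a, the phagocytic receptor Dectin-1, stood out. It reached 308 at the lowest, 482 at the median and 783 at the highest in TBI thalamus, and 94.0, 149 and 187 in TBI cortex. No thalamus value fell into the cortex range, and the log2 difference was 1.78 ± 0.23, a 3.44-fold difference (adjusted p = 6.48e-05 by limma). Its sham medians were 10.6 in the thalamus and 17.2 in the cortex, a difference of -0.63 toward the cortex. The change of the difference from sham to TBI rats was 2.41 ± 0.36 (interaction adjusted p = 0.00113 by limma), the third largest toward the thalamus among loci with a mean of at least 100 in some group.

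Spp1, the secreted phosphoprotein osteopontin, ranged from 1046 to 3129 in the thalamus and from 243 to 751 in the cortex, 3.88-fold apart (1.95 ± 0.30, adjusted p = 0.000231 by limma). In sham rats it was 2.67 higher in the thalamus on the log2 scale, from medians of 207 and 37.7. Igf1, a growth factor that microglia can release, had a difference of 1.32 in TBI and 1.30 in sham rats. Trem2, the lipid receptor that controls the programme, lay between 952 and 1243 in the thalamus and 544 and 832 in the cortex (0.71 ± 0.10), and Cd68, a lysosomal glycoprotein of phagocytes, was 1.03 higher. Apoe differed by 0.45. Itgax, an integrin chain of activated phagocytes, did not pass the test (0.74 ± 0.34, adjusted p = 0.0811 by limma), with values of 20.6 to 62.4 and 8.33 to 41.6. The 2 members called lower were Ch25h, a cholesterol hydroxylase, and Lpl, a lipase, whose call was lost when any TBI rat but rat 45 was left out. Lpl was at 167 to 207 in 5 thalami and at 1696 in rat 45, against 433 to 652 in the cortex, a difference of -0.96 with rat 45 and -1.43 without it.

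In the complement list C3, chains of C1q and regulators were higher in the thalamus and the C1 protease C1r was lower. Of 18 names 16 had a locus, all tested, of which 8 were higher and 4 lower in the thalamus, and 5 shifted toward the thalamus relative to sham rats, or 2 or 3 without rat 26, 34, 38, 45, 50, 55 or 56. C3, the component on which all complement pathways meet, ranged from 5587 to 9081 in the thalamus and from 3094 to 4173 in the cortex (0.96 ± 0.10, adjusted p = 1.56e-05 by limma). C1qa, a chain of the recognition molecule C1q, had medians of 5332 and 3446 and no overlap (0.58 ± 0.07). C1qb differed by 0.52, whereas the third chain, C1qc, differed by 0.05 ± 0.13. Cd55, a membrane protein that breaks down complement convertases, was 1.16 higher. C3ar1, the C3a receptor, was 0.60 higher, where the regions of sham rats were level, and the difference was larger than in sham rats. C1r and C1s, the proteases of C1, were lower by 0.94 and 0.18. Without rat 45 the C1s call was lost (-0.16, adjusted p = 0.0963 by limma) and 3 listed genes were lower. C4b was also lower, by 0.71, with 122 to 382 in the thalamus and 249 to 454 in the cortex, but it has a near-identical copy and how reads were shared between the copies is not given in the sources used here. The locus named for properdin, Cfp, was lower too, but it is joined with the neighbouring gene Elk1 and cannot be assigned to either.

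Fc receptors and subunits of the NADPH oxidase were higher or not called. Of 14 genes tested, 11 were higher in the thalamus and none was lower, with a median of 0.65 against 0.17 in sham rats. Fcgr2b, the inhibitory receptor for immunoglobulin G, ranged from 523 to 883 in the thalamus and from 363 to 508 in the cortex, without overlap (0.65 ± 0.08, adjusted p = 4.52e-05 by limma). In sham rats it leaned to the cortex, at a median of 228 against 259.9, and the change from sham to TBI rats was 0.89 ± 0.14 (interaction adjusted p = 0.00191 by limma). Fcer1g, the signalling chain shared by activating Fc receptors, was 0.85 higher and shifted from sham rats by 0.50, a call that was lost under 7 of the alternatives, among them leaving out rat 63 (adjusted p = 0.0507 by limma). Ncf1, the organiser subunit p47phox of the oxidase, was 2.38-fold higher, with 1441 to 1964 in the thalamus and 514 to 847 in the cortex (1.25 ± 0.11). Ncf4 and Rac2, further cytosolic parts, were 0.72 and 0.61 higher. The membrane subunits did not share this. Cybb, the catalytic subunit, ranged from 156 to 345 in the thalamus and from 183 to 348 in the cortex (-0.02 ± 0.13, adjusted p = 0.907 by limma), and its partner Cyba differed by 0.08. In sham rats Cybb was lower in the thalamus by 0.72 on the log2 scale, with medians of 80.05 and 138.

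Sensors of the innate immune system followed the microglial genes. In the list of Toll-like receptors and inflammasome genes, 12 of 15 tested were higher in the thalamus and none was lower (median 0.63, sham 0.18), and 3 of the 12, Tlr7, Nlrp3 and Casp1, shifted toward the thalamus relative to sham rats. Tlr2 and Tlr4, the receptors for bacterial lipoproteins and endotoxin, were 0.48 and 0.55 higher. Il18, a cytokine released by the inflammasome, lay between 280 and 348 in the thalamus and between 131 and 224 in the cortex (0.85 ± 0.11). The acute cytokines were low in both regions: Il1b ranged from 9.78 to 34.5 and from 15.5 to 33.98 (0.05 ± 0.24), Tnf averaged 9.65 ± 5.18 and 14.1 ± 11.4 (SD, n = 6), and Il6 did not pass the filter.

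The interferon response had no thalamic excess. Among 19 tested genes 3 were higher, 2 were lower and 14 were not called, with a median of -0.18. Without rat 24 the lower count was 6 and without rat 63 it was 4. Among the 3 were Ifit2 (1.07 ± 0.09) and Irf8 (0.92 ± 0.08). Irf8 is also a lineage factor of microglia, and it lay between 843 and 1156 in the thalamus and between 398 and 617 in the cortex. Ifit2 had a larger difference in sham rats, 1.38. Mx1, an antiviral GTPase, did not pass the test, with 128 to 325 in the thalamus and 141 to 420 in the cortex (-0.14 ± 0.23), nor did Irf7, which drives interferon production (-0.21 ± 0.09). Stat2, a signal carrier of the interferon receptor, and Gbp2, an interferon-induced GTPase, were lower in 6 of 6 rats, by 0.18 and 0.39 on the log2 scale. Genes of class I antigen processing were divided, with 4 of 11 higher and 3 lower (1 lower without rat 22). B2m, the light chain of class I molecules, was 0.26 higher, Erap1, a peptide trimmer, 0.68 higher, and the peptide transporter Tap1 lower by 0.29.

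Antigen presentation by class II molecules depended on rat 45. Over all 6 rats 2 of 7 tested genes were higher in the thalamus, Cd74 and RT1-DOb, and the median was 0.47. Without rat 45, 5 of 7 were higher and the median was 0.77. Without rat 22, 52, 56 or 63 only 1 was. Cd74, the invariant chain that guides class II molecules, was at 4333, 4690, 4061, 3378 and 7751 in the thalamus of rats 22, 24, 52, 56 and 63, and at 2033, 3241, 1543, 2343 and 2076 in their cortex. In rat 45 the order was reversed, with 3050.2 in the thalamus and 5543 in the cortex. The log2 difference was 0.76 ± 0.28 with all rats (adjusted p = 0.0352 by limma) and 1.09 without rat 45 (adjusted p = 0.000324 by limma). The call was lost without rat 22, 52, 56 or 63, with log2 differences between 0.54 and 0.81 and adjusted p up to 0.117 by limma. The class II chains RT1-Da and RT1-Ba had 0.47 ± 0.25 and 0.56 ± 0.27, neither called with all rats and both called without rat 45. The share of the choroid plexus and meningeal transcripts of rat 45 in this was not tested. RT1 genes have near-identical copies, so their values are uncertain.

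Chemokines went both ways. Of 14 tested ligands and receptors 3 were higher, 4 were lower and 7 were not called. Their median was -0.30 in TBI and -0.71 in sham rats. Ccl3 and Ccl5, attractants of leukocytes, were higher by 0.73 and 0.87. Ccl3 lay between 34.7 and 48.9 in the thalamus and between 16.7 and 33.9 in the cortex. Cxcl10, an interferon-induced ligand, was lower in the thalamus of 5 of 6 rats, at 14.1 to 54.8 against 43.6 to 184 (-0.98 ± 0.27, adjusted p = 0.00912 by limma). Cxcl12 was lower by 0.71 and Ccr1 by 0.95. Ccr1 did not pass the test without rat 24 (-0.92, adjusted p = 0.0827 by limma). The same held without rat 63 (-0.69, adjusted p = 0.137 by limma). Without rat 45 its difference was -1.36 (adjusted p = 0.00128 by limma). Ccl2, the attractant of monocytes, lay between 12.2 and 47.8 in the thalamus and 14.2 and 58.6 in the cortex and did not pass the test (-0.12 ± 0.22).

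The signals that act on microglia were divided by region. Of 13 genes tested 8 were higher in the thalamus and 4 lower, with a median of 0.32 in TBI and -0.07 in sham rats, and 4 shifted toward the thalamus relative to sham rats. Csf1 and Il34 are the ligands of the receptor that keeps microglia alive. Csf1 was 2.03-fold higher in the thalamus, at 2325 to 2845 against 948 to 1624, and Il34 2.12-fold lower, at 801 to 1236 against 1686 to 2447. Sham rats had differences of 1.11 and -1.06 on the log2 scale beside 1.02 and -1.08 in TBI rats. Il33, an alarmin of glial nuclei, was higher in the injured thalamus, 1807 to 2531 against 1121 to 1546 (0.68 ± 0.11), and the sham difference was 0.05. The change from sham to TBI rats was 0.63 ± 0.13 (interaction adjusted p = 0.00943 by limma). Tgfb1, which maintains resident microglia, was 0.49 higher and shifted likewise. Cd200r1, the inhibitory receptor for neuronal Cd200, was much lower in the thalamus, at 22.5 to 46.7 against 106 to 312 (-2.41 ± 0.18, adjusted p = 1.32e-06 by limma). Its sham medians were 18.5 and 303, a difference of -4.05, so the gap between regions was 1.63 ± 0.25 smaller in TBI rats (interaction adjusted p = 0.00119 by limma). Cx3cl1, the neuronal fractalkine, was lower in 5 of 6 thalami by 0.35 on the log2 scale.

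Genes of blood-borne leukocytes did not show the same regional order. Most T cell genes were low in both regions. Of 18 listed genes 9 passed the filter, with a median log2 difference of -0.48 in TBI and -0.62 in sham rats. In the comparison with sham rats 1 of 7 tested shifted toward the thalamus and none toward the cortex. Of the 9 in TBI rats, 5 were lower in the thalamus and 2 were higher, 1 of which lost its call without rat 22, 24, 56 or 63. That floor of 3 fragments equals 2.06 to 3.67 normalized counts. Cd3e, a chain of the T cell receptor complex, lay between 1.88 and 10.2 in the thalamus and between 6.46 and 36.5 in the cortex, and Cd2 between 1.88 and 9.07 and between 14.5 and 22.5. Zap70, a T cell kinase, was 4.16-fold lower. Cd4 differed from these. It was abundant, ranging from 2511 to 4153 in the thalamus and from 1243 to 1525 in the cortex (1.12 ± 0.09, adjusted p = 2.1e-06 by limma). Cd4 is carried by helper T cells and, in the rat, also by microglia and macrophages. Sham medians were 828 and 794, and the change from sham to TBI rats, 1.00 ± 0.12 passed the test (interaction adjusted p = 0.000325 by limma). Without rat 63, whose difference of 1.67 was the highest, it was 0.89. Of the 7 B and plasma cell genes 6 had a locus and none passed the filter; Cd79a was listed at 0 in all 12 libraries.

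Macrophages of the brain borders were lower in the thalamus except in rat 45. Of 8 genes 4 were lower and 1 was higher, with a median of -0.74 over all TBI rats, 0.44 in rat 45 and -0.40 in sham rats. The summed level of the list was 1438 to 5678 in the thalamus and 2811 to 5011 in the cortex. Mrc1, the mannose receptor of perivascular macrophages, lay between 153 and 318 in 5 thalami and at 1069 in rat 45, against 367 to 784 in the cortex. The difference was -0.90 with rat 45 and -1.17 without it. F13a1, a transglutaminase, was the exception at 567 to 1085 against 143 to 303 (1.86 ± 0.09), with 2.56 in sham rats. Of the 9 genes of monocytes and neutrophils 5 were tested, 2 lower and 1 higher, the latter lost without rat 24, 45, 52 or 56. Their median was -0.62 in TBI and -0.93 in sham rats, and none passed the comparison with sham rats. Plac8 and the integrin chain Itga4 were lower by 1.29 and 1.10. S100a8 did not pass the filter, at 2.45 to 10.3 and 6.46 to 10.4.

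Lysosomal genes were higher in the thalamus too. Of 16 genes 12 were higher and 1 was lower, with a median of 0.48 in TBI and 0.25 in sham rats. The difference was larger than in sham rats at 8 genes and smaller at none. Ctss, a cathepsin of phagocytes, ranged from 16838 to 23758 in the thalamus and from 9422 to 12291 in the cortex (0.87 ± 0.07, adjusted p = 2.04e-06 by limma), and its sham difference was 0.34. Npc2, which moves cholesterol out of lysosomes, was 2.10-fold higher, and Grn, the precursor of granulins, 1.54-fold higher. In iron handling 5 of 9 genes were higher and 3 lower. Fth1, the heavy chain of ferritin, ranged from 57362 to 68770.2 against 30162 to 36947 (0.94 ± 0.06), and its sham difference was 0.52. The iron exporter Slc40a1 was 1.27 higher, and Hmox1, which breaks down haem, 0.67 higher. Of 4 erythroid loci 3, all of haemoglobin genes with near-identical copies, were called lower in the thalamus, but none in 6 of 6 rats. None of the 3 calls held without rat 22, and 1 held without rat 24. Hba1 was at 1598 to 4003 against 2461 to 4038. How far residual blood bears on iron genes was not tested.

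**Figure D3:**
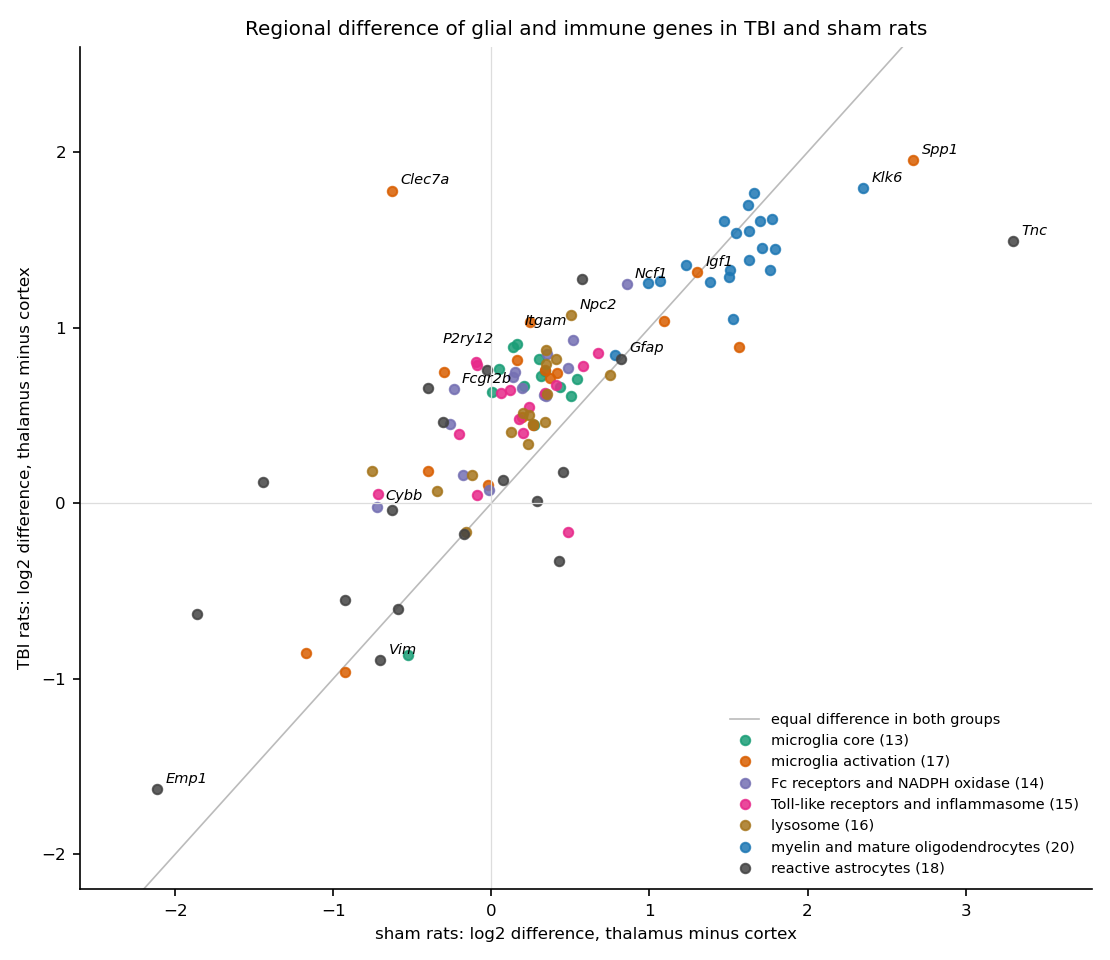
Log2 difference of thalamus minus cortex in TBI rats (vertical axis) and in sham rats (horizontal axis) for the tested members of 7 glial and immune lists, 1 point per gene; the grey line marks equal differences. Clec7a lies at 1.78 in TBI and -0.63 in sham rats, Tnc at 1.49 and 3.30, and the myelin genes lie along the line.

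Astrocyte genes gave no common direction. Of the 18 reactive genes 6 were higher, 5 were lower and 7 were not called, with a median of 0.07 in TBI and -0.24 in sham rats. Gfap, the intermediate filament of astrocytes, was higher in the thalamus, at 94239 to 116667 against 38135 to 74736 (0.82 ± 0.12, adjusted p = 0.000187 by limma). In sham rats it had the same difference of 0.82 at lower levels, with medians of 22561 and 12318, so that the term for the change was 0.00 ± 0.19. Without rat 63, which had the lowest cortex value, the TBI difference was 0.67. Vim, an intermediate filament of reactive astrocytes and of fibroblasts, was lower in all 6 thalami, at 5346 to 11722 against 8156 to 19862 (-0.90 ± 0.10). The highest value in each region was that of rat 45.

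Tnc, the matrix glycoprotein tenascin-C, was the reactive gene whose regional difference was most reduced in TBI rats. It ranged from 1954 to 2681 in TBI thalamus and from 533 to 1055 in TBI cortex, a difference of 1.49 ± 0.14. Sham medians were 3163 in the thalamus and 316 in the cortex, a difference of 3.30, and the change was -1.81 ± 0.17 (interaction adjusted p = 2.6e-05 by limma). Cd109, a membrane protein, also shifted toward the cortex (-0.76), a call lost without rat 24 or 45 among others. Another 5 listed genes, Nes, Osmr, Timp1, Aspg and S100a10, shifted toward the thalamus. Their number was 3 without rat 24, 32, 34, 45, 52, 55, 56 or 63 and 2 without rat 38. Of these Timp1, an inhibitor of matrix proteases, differed by 0.12 in TBI rats and by -1.45 in sham rats. Emp1, a membrane protein, was lower at 89.3 to 389 against 344 to 742.

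Among homeostatic astrocyte genes 7 of 16 were higher and 3 were lower. The water channel Aqp4 ranged from 57304 to 81700.1 in the thalamus and from 26331 to 33355 in the cortex (1.19 ± 0.09), beyond the 0.80 of sham rats (interaction adjusted p = 0.0421 by limma), a call that was lost under 12 of the alternatives. The glutamate transporters were both lower in the thalamus, Slc1a2 at 68921 to 92037 against 138162 to 180822 (-1.02 ± 0.08) and Slc1a3 by 0.58, with sham differences of -1.13 and -0.71. Gja1, the connexin that couples astrocytes, differed by -0.10 ± 0.06. Genes that separate astrocytes of the thalamus from those of the cortex differed between regions in TBI rats too. All 5 non-telencephalic genes were higher, among them angiotensinogen, Agt, at 20389 to 27642 against 4198 to 5680.4, and the GABA transporter Slc6a11, 4.82-fold higher. All 5 telencephalic genes were lower, with a median of -1.79. The difference was smaller than in sham rats at 1 gene of each list, Sparc (1.11 against 1.51) and Thrsp (-0.27 against -0.87).

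**Figure D4:**
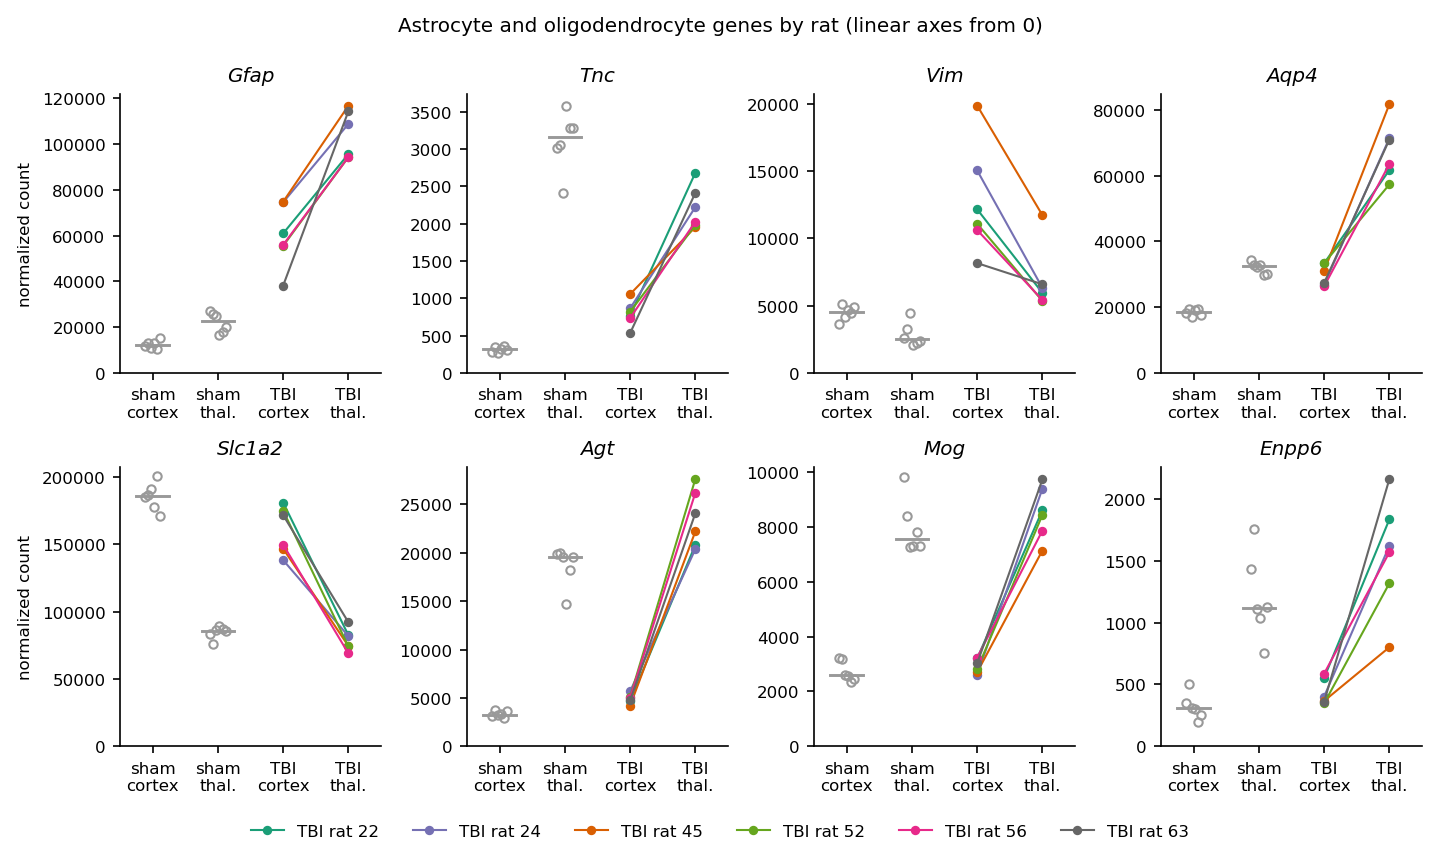
Normalized counts of 6 astrocyte and 2 oligodendrocyte genes (Mog and Enpp6) in sham cortex and thalamus (open circles with the median as a bar, n = 6 each) and TBI cortex and thalamus (points joined within a rat, n = 6), on linear axes from 0. Gfap is higher in the thalamus in both groups, Tnc is at 1954 to 2681 in TBI thalamus against a sham median of 3163, and Vim and Slc1a2 fall from cortex to thalamus in every TBI rat.

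Myelin genes moved as one group. All 20 tested genes of mature oligodendrocytes were higher in the injured thalamus, each in 6 of 6 rats, with a median of 1.42 and rats between 1.11 and 1.70. Sham rats had 1.59, and the change from sham to TBI rats passed the test at none of the 20, with a median of -0.11. Mbp, which compacts the myelin membranes, ranged from 275892 to 414169 in the thalamus and from 93658 to 130937 in the cortex, 3.07-fold apart (1.62 ± 0.09, adjusted p = 8.08e-08 by limma). Mog, on the outer surface of myelin, was 2.91-fold higher. Klk6, a protease of oligodendrocytes, had 1.79 ± 0.14 in TBI and 2.35 in sham rats (interaction adjusted p = 0.0524 by limma, and 0.00538 without rat 63). Of 11 genes of precursors and newly formed cells 9 were higher. Enpp6, which marks cells that have just begun to form myelin, lay between 802 and 2163 in the thalamus and between 347 and 588 in the cortex (1.80 ± 0.15). Pdgfra, the growth factor receptor of precursors, did not pass the test, at 3309 to 6289 against 3421 to 5373 (-0.07 ± 0.06). Cspg5, on a locus shared with Smarcc1, was lower.

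**Figure D5:**
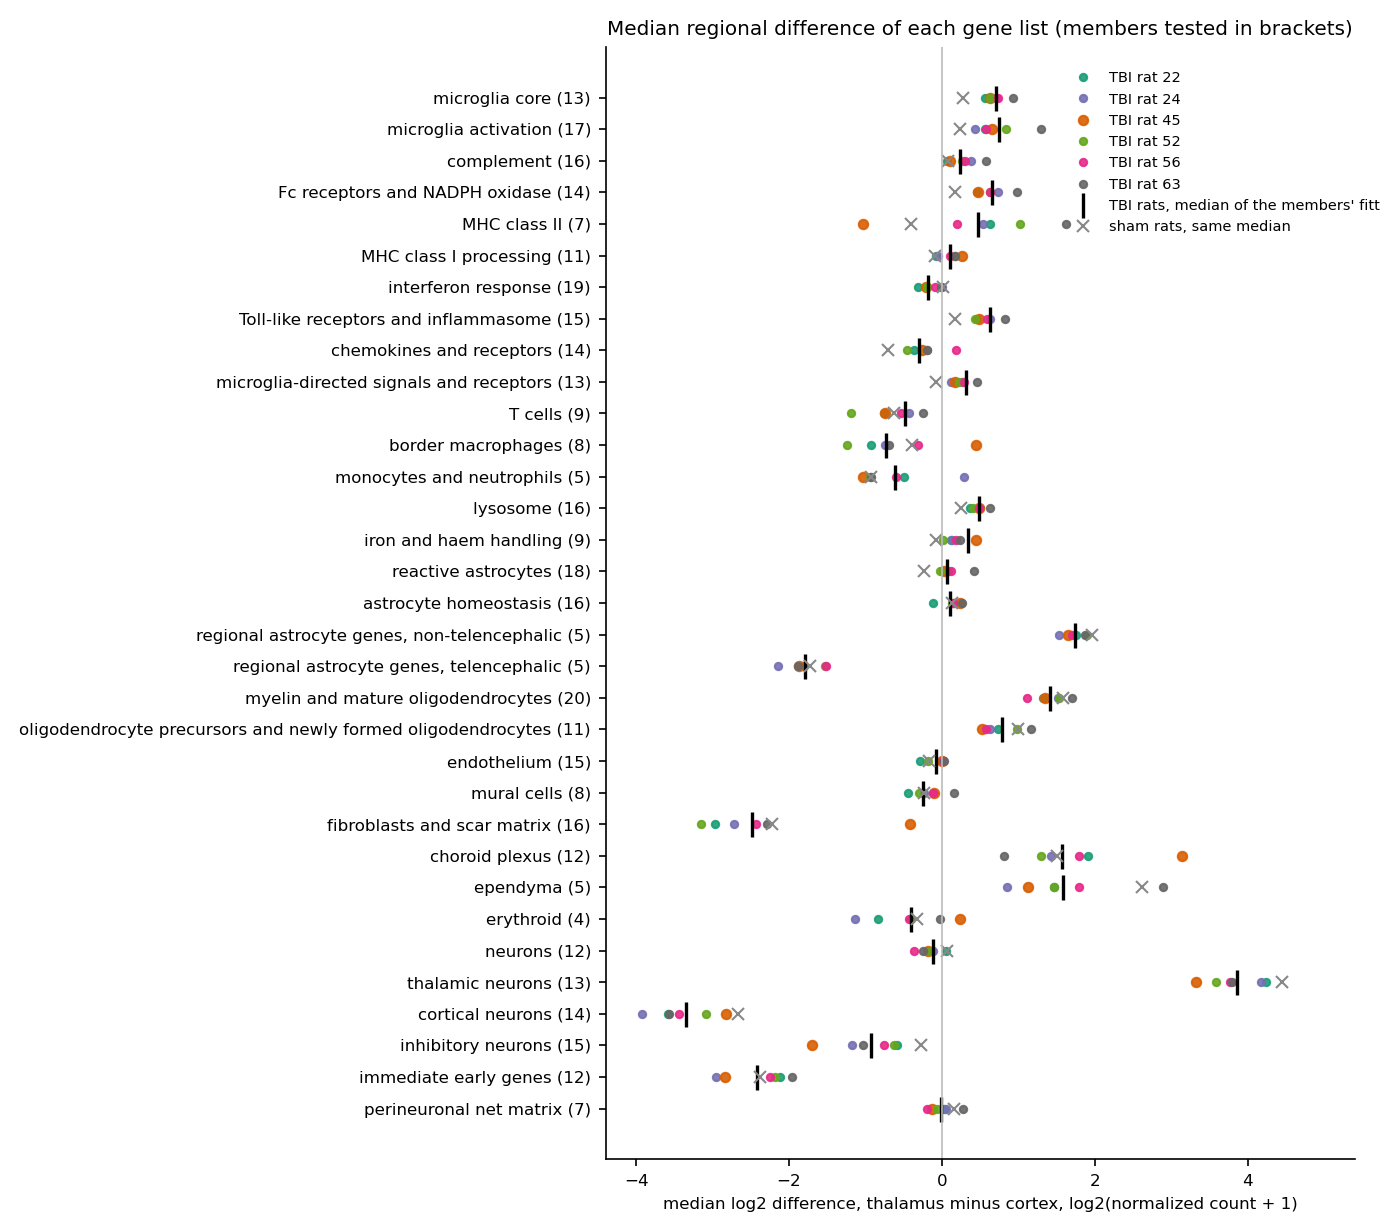
Median log2 difference of thalamus minus cortex over the tested members of each gene list (number in brackets) for each of the 6 TBI rats (coloured points), for the TBI fit (black bar) and for sham rats (grey cross). The microglial, Fc receptor, Toll-like receptor and lysosomal lists lie above 0 and to the right of their sham cross, the myelin list lies at 1.42 with its sham cross at 1.59, and rat 45 departs from the other rats for fibroblasts, choroid plexus, border macrophages and class II genes.

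Vessels, by contrast, differed little in their endothelial genes. Of 15 tested 2 were higher and 3 lower, with a median of -0.08. Cldn5, the tight junction claudin, had medians of 2940 and 2981, and Slc2a1, the glucose transporter of the barrier, 6479 and 6345. Vwf and Cdh5 were lower in all 6 thalami by 0.69 and 0.53, the first on a locus shared with another gene. Among mural genes Pdgfrb and Des were lower and the pericyte channel subunit Kcnj8 was higher, by 0.75.

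All 16 genes of fibroblasts and scar matrix were lower in the thalamus, with a median of -2.49, and of -2.74 without rat 45. Col1a1 ranged from 239 to 342 in 5 thalami and was 4918 in rat 45, against 1890 to 4695 in the cortex (-2.62 ± 0.39, and -3.16 without rat 45). Fn1, fibronectin, was lower by 0.80. These differences were there in sham rats too, with a list median of -2.22. Cortex carries the meninges on its surface, and the part of meninges in the samples was not tested. Postn, periostin, was the member whose gap was smaller in TBI rats, -2.48 against -4.18. Of 12 choroid plexus genes 8 were higher in the thalamus and 2 were lower, with a median of 1.58, or 1.34 without rat 45. Without that rat the 2 lower genes were Aqp1 at -4.71 and Kcnj13 at -4.20. The summed level of the list was 994 to 282402 in the thalamus and 1246 to 35002 in the cortex. Ttr itself did not pass the test (0.87 ± 0.47). Cilia genes of the ependyma, the lining of the ventricles, were higher in the thalamus at 4 of 5 loci, and 3 had a smaller difference than in sham rats. Tmem212 was at 135 to 333 in the thalamus and 2.38 to 60.3 in TBI cortex, while its sham cortex median was 0.472. The part of ventricular lining in the cortex samples was not tested.

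Some general neuronal genes were lower in the thalamus. Snap25 and Syn1, of the synaptic vesicle machinery, and Rbfox3, the nuclear antigen NeuN, were 2.09-fold, 2.41-fold and 4.31-fold lower without overlap, while Nefl, a neurofilament, did not pass the test (-0.14 ± 0.06). Over 12 general neuronal genes 4 were higher and 5 were lower, with a median of -0.12 in TBI and 0.07 in sham rats. The change from sham to TBI rats passed the test at none of the 12, Snap25, Syn1 and Rbfox3 included. Without rat 22 it passed at 3, toward the cortex, and without rat 26 or 52 at 1. The marks of thalamic neurons, though all higher than in cortex, stood less far above it than in sham rats at 7 of 13 genes, and further above it at 1. Prkcd, a kinase of thalamic relay neurons, was at 18547 to 26164 in TBI thalamus against a sham median of 36846, with cortex medians of 1056 and 1148 (change -0.87 ± 0.13, interaction adjusted p = 0.000973 by limma). Tcf7l2 changed by -0.69. Slc17a6, the vesicular glutamate transporter of relay neurons, was the exception at 0.39, with a cortex median of 677 in TBI and 1005 in sham rats. This call was lost under 12 of the alternatives.

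Of 15 inhibitory neuron genes 11 were lower in the thalamus and 3 higher. Pvalb had medians of 3017 and 3123 in TBI rats (-0.23 ± 0.14) and 6160 and 4497 in sham rats, a change of -0.67 ± 0.19 (interaction adjusted p = 0.0399 by limma, lost under 9 of the alternatives). Acan, the aggrecan of perineuronal nets, moved alike: it was lower in TBI thalamus, at 176 to 271 against 240.4 to 334, and higher in sham thalamus, at medians of 481 and 352 (change -0.87 ± 0.12, interaction adjusted p = 0.000591 by limma). Of 12 activity-regulated immediate early genes 9 were lower in the thalamus and 3 higher, with a median of -2.42 in TBI and -2.38 in sham rats. Relative to sham rats 2 shifted toward the thalamus and none toward the cortex. Without rat 22, 24, 34, 50, 55, 56 or 63 only 1 shifted. Arc, which acts at synapses, was at 184 to 389 against 1618 to 8569. Fos was higher by 0.29 in TBI rats, with 728 to 2034 and 548 to 1826, and lower by 0.30 in sham rats.

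The largest shifts of the regional difference toward the thalamus, among loci with a mean of at least 100 in some group, included those at Pmch, Cartpt, Clec7a and Egr2. Egr2 stayed lower in TBI thalamus than in TBI cortex. Its shift lost its call under 7 of the alternatives (interaction adjusted p up to 0.0727 by limma). Cartpt, a neuropeptide precursor, went from -1.997 in sham to 0.57 in TBI rats, with TBI medians of 78.2 and 55.9 and sham medians of 41.8 and 178. Pmch, the hormone precursor of neurons in the lateral hypothalamus, lay between 83.3 and 665 in the thalamus and between 5.95 and 31.5 in the cortex. The 5 largest shifts toward the cortex were at Scn7a, the locus ENSRNOG00000029586, Tmem212, Spata18 and Chst9. Scn7a, a sodium channel found in glia and sensory ganglia, had medians of 757 and 433 in TBI rats (0.95 ± 0.28) and of 1063 and 21.5 in sham rats, so the change was -4.75 ± 0.35 (interaction adjusted p = 3.5e-06 by limma). Chst9, a sulfotransferase, had medians of 486 and 90.2 in TBI and 546 and 6.80 in sham rats. At both genes the TBI cortex was above the sham cortex by more than the thalami differed.

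The loci the account turns on are placed as the files list them; the files state neither a build nor whether they count from 0, and the study names 2 builds. P2ry12 is at chromosome 2, 168632571 to 168996281. Clec7a is at chromosome 4, 211859642 to 211877596, and Cd4 on the same chromosome at 224399637 to 224426147. Tnc is at chromosome 5, 83890360 to 83974319, and Gfap at chromosome 10, 90763144 to 90771847. Each interval spans the whole assembled locus, exons and introns together.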

How the data were processed

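RNA of both regions was taken from 6 TBI and 6 sham rats and, with the tissue pieces of a region pooled after homogenisation, sequenced with a stranded kit for polyadenylated RNA. According to the methods, the authors aligned reads with TopHat 2.0.11 and Bowtie2 2.2.2 and counted fragments with Cufflinks 2.2.1 and Cuffdiff; the build is Rnor_5.0 in the submitters' processing notes and another in the methods, so coordinates are printed as listed. The deposited values are a signal of normalized counts, that is, fragment counts divided by a size factor of each library, and they were not transformed further by the authors. In the TBI libraries 99.97% to 99.99% of positive values were whole multiples of 1 step, within 0.1 fragment, which gave the depths. Counting error alone puts the floor of 3 fragments at 2.06 to 3.67 normalized counts.

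Of 42334 loci, 15693 had no gene name and were left out (1.93% to 2.20% of the normalized counts of a TBI library), as were loci with a mean under 10. Of the names in the gene lists, 434 were found as written, 11 in other letter case, 2 by a RefSeq synonym, and 13 had no locus. The fit was limma 3.58.1 in R 4.3.3 on log2(normalized count + 1) with terms for rat and region and a mean-variance trend, adjusted by Benjamini-Hochberg. Rat numbers pair the samples because both libraries came from the same animal. Deviations of the same rat correlated between regions at a median of 0.290 and at over 0.1 in 5 of 6 rats. The comparison with sham rats was an interaction term. P-values rest on how far the thalamus minus cortex difference varied between animals, as levels of each rat were taken up by its term.

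The groups, lists and tests were chosen with earlier results of these data known. Genes named are the first 3 of each list, the 2 other members with the largest difference in 6 of 6 rats, and the 5 largest differences and interactions in each direction among loci with a mean of at least 100; others are named as list members after their values were seen, and some genes of this rule are not reported here. Sham libraries entered no test of region. On simulated libraries the paired fit recovered 99.5% of 200 loci changed 2-fold and 83.5% of 200 changed 1.5-fold, and the interaction 95.0% and 32.5%. Alternatives were the pseudocount, the filter, the scaling, the block, limma-voom, edgeR 4.0.16 and leaving out each rat. Figures were drawn with matplotlib 3.10.9 in Python 3.11.15.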

Additional observations from a re-analysis of the deposited data

Results flagged for a closer look

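Differences of the 6 rats were searched for a single rat far from the other 5 by Dixon's test, which sets the gap to the nearest rat against the whole range. Of 224 list medians and named genes 28 had one, and chance gives about 1 in 20. Rat 63 stood apart at 11, with log2 differences of 1.05 for Cx3cr1, 2.76 for Itgax, 1.4 for Fcer1g, 1.93 for Ncf1, 1.86 for RT1-DOb, 1.59 for Csf1, 1.67 for Cd4, 1.53 for Npc2, 1.58 for Gfap and 4.38 for ENSRNOG00000029586, and with a reactive astrocyte median of 0.43. In each of these it lay above the other rats. Rat 45 stood apart at 8: a fibroblast median of -0.41, Cd55 at 0.13, Colec12 at -0.56, Col1a1 at 0.067, Col1a2 at -0.0031, Kl at 3.17, Prkcd at 3.65 and Emx1 at -4.50. Rat 24 did so for the striatal median (-3.02), Drd2 (-3.11), Adora2a (-2.94) and Il18 (1.41). Rat 22 did so for the median of astrocyte homeostasis (-0.11) and Gpr151 (4.79), rat 52 for Tlr2 (0.18) and Zap70 (-1.39), and rat 56 for Ccl2 (0.83).

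For 43 named genes the difference between regions itself differed between TBI and sham rats by the interaction test. Values below are the change of the log2 difference from sham to TBI rats. Among microglial and immune genes it was 0.75 for P2ry12, 0.41 for Cx3cr1, 0.75 for Itgam, 0.52 for P2ry13, 2.41 for Clec7a, 0.89 for Fcgr2b, 0.50 for Fcer1g, 1.44 for RT1-DOb, 0.35 for B2m, 0.59 for Irf8, 1.63 for Cd200r1, 0.63 for Il33, 1.00 for Cd4 and -0.70 for F13a1. Lysosomal and iron genes gave 0.53 for Ctss, 0.57 for Npc2, 0.41 for Ctsz and 0.42 for Fth1. Astrocyte and vessel genes gave -1.81 for Tnc, 0.39 for Aqp4, -0.40 for Sparc, 0.61 for Thrsp and 0.28 for Pecam1. Genes of ependymal cilia gave -2.39 for Ccdc153, -3.96 for Tmem212 and -0.83 for Tekt1.

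Neuronal genes gave -0.69 for Tcf7l2, -0.87 for Prkcd, 0.39 for Slc17a6, -0.92 for Slc17a7, -0.67 for Pvalb, 2.68 for Pmch, -0.40 for Prox1, 0.59 for Fos, 2.35 for Egr2, -0.87 for Acan and 2.57 for Cartpt. Other loci were Ankrd63 at -2.84, Scn7a at -4.75, Spata18 at -3.79, Chst9 at -3.74, ENSRNOG00000028913 at 0.87 and ENSRNOG00000029586 at -4.19. Some of these calls were lost under several alternatives: 7 for B2m and Egr2, 8 for Ctsz, 9 for Prox1, 11 for Pecam1 and 13 for ENSRNOG00000028913. Those of Fcer1g, Aqp4, Slc17a6 and Pvalb are given above. Ankrd63, F13a1, Fos, P2ry13, RT1-DOb and Tekt1 each lost the call under 1 alternative.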

How the results depend on the processing

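With one rat left out, 4461 to 5020 loci were higher and 3840 to 4261 lower in TBI thalamus, and the interaction gave 310 to 545 and 449 to 917. Without sham rat 50 it gave 310 and 449, without sham rat 55 it gave 319 and 521, and without TBI rat 56 it gave 494 lower. At an adjusted p under 0.01 it gave 176 and 269. A difference of at least 2-fold held at 1223 higher and 1253 lower loci. Without the replicate block 4872 and 4176 loci were called, and 427 and 711 in the interaction. TMM scaling, which moved the median of all loci by -0.026, gave 4754 and 4627. limma-voom gave 5076 and 4311. edgeR on recovered fragments, chosen after seeing the data, gave 5059 and 4323, of which 5035 and 4313 were shared. With a mean of at least 50 the median of monocytes and neutrophils was -1.20 and that of telencephalic astrocyte genes -1.24; with no filter the hippocampal median was -0.070. Of 187 genes named by the rule above 161 kept direction and call under every alternative run. Among them direction turned only at genes that were not called with all rats. With one rat left out Cybb ranged from -0.15 to 0.057, Mx1 from -0.40 to 0.023, Il1b from -0.15 to 0.19, Cldn5 from -0.15 to 0.0079, Slc2a1 from -0.0016 to 0.081, Adora2a from -0.25 to 0.52 (the latter without rat 24) and Dsp from -0.37 to 0.11. limma-voom gave 0.0010 for Cybb and 0.32 for Dsp, and edgeR 0.027 for Dsp. Of the genes of the rule, Camp, Cartpt, Cd74, Fos, Hba1, Hba2, Hbb and Psmb9 lost their call somewhere. List members named outside the rule, such as Lpl, C1s and Ccr1, were not counted here, and their lost calls are given above. Of the 44 named interactions 28 were called under every alternative. The cause was not tested. Depth limits T and B cell genes, many of which lay near or under the floor.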
